A study of Mus musculus with 17 samples.

Results

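The comparison set mouse cortex mRNA that had been diluted to 10 pg and amplified for 4 rounds against the same mRNA hybridized without amplification. The arrays were chosen by their labels: 3 arrays of 10 pg after 4 rounds and the only array of unamplified mRNA, here called bulk, 4 of the 17 arrays of the series. All 4 carried untreated C57BL/6 cortex mRNA from adult female mice, and the sources used here describe a single isolation without giving the number of animals. Bulk held 5 µg of unamplified mRNA, and each 10 pg array came from an amplification of its own. The dilutions served as a control for microarrays of dissected dendrites, and the other 13 arrays hold 10 pg after 2 rounds and inputs of 0.1 and 1 pg after 2 and 4 rounds. Whether the last amplification, made with a commercial kit, counts as a round is not stated. Every p-value below measures the spread from 1 amplification to another, with no animal replicated. As bulk is a single array, a deviation of that array and an effect of amplification cannot be told apart.

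Antisense RNA (aRNA) amplification copies mRNA into cDNA from an oligo-dT primer that carries a T7 promoter, and T7 RNA polymerase then transcribes the cDNA many times. The product is the template of the next round, in which the first strand is started by random primers. Each round is therefore known to shorten the copies from the end of the transcript that lies away from the poly(A) tail, so that a probe set, the group of short oligonucleotides with which an Affymetrix array reads 1 stretch of a transcript, is reached more surely when it lies near the 3' end. The method is linear and is used for single neurons and their dendrites, where picograms of mRNA are all there is.

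Levels are in log2 units above the array median, after each array was centered on its median and scaled by its range between the 10th and the 90th percentile, and amounts are not compared between probe sets, except that control probe sets along 1 transcript are subtracted from each other within an array. Among the 4 arrays compared, the deposited medians were 5.75, 5.76 and 5.83 at 10 pg and 5.64 in bulk, and many probe sets shared a value, with 2311, 2702 and 3169 distinct values on the 10 pg arrays and 3730 in bulk. Genes of synaptic vesicles ranked high on all 4 arrays, while lists of other tissues ranged from low to the middle. The median percentile of 27 genes of synaptic vesicles was 89.5, 90.2 and 89.7 on the 10 pg arrays and 90.2 in bulk, that of 22 testis-restricted genes 19.1, 25.8 and 18.6 at 10 pg and 16.5 in bulk, and that of 19 genes of liver, muscle and pancreas 40.8, 37.2 and 37.3 at 10 pg and 30.2 in bulk.

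Most genes lay near their bulk level. Over all 45037 probe sets, Pearson's correlation with bulk was 0.825, 0.821 and 0.809 for the 3 amplifications of 10 pg, and 0.884, 0.885 and 0.879 between the amplifications themselves. These values are across probe sets, which are not independent replicates. The other groups correlated with the same bulk array at 0.674 (0.1 pg, mean of 3 arrays) and 0.766 (1 pg, mean of 3) after 4 rounds. Among 18193 genes, each taken as its brightest probe set on average of all 17 arrays, 13845 (76.1%) differed from bulk by less than 1 log2. The median difference of 10 pg minus bulk was 0.11 log2 over genes, with quartiles of -0.43 and 0.61.

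With limma over all 17 arrays, 173 probe sets passed a Benjamini-Hochberg adjusted p of 0.05 between 10 pg after 4 rounds and bulk. Of these, 33 were higher at 10 pg (0.0733% of those tested) and 140 lower (0.311%). The falls started from high levels: the 140 probe sets had a median of -0.86 at 10 pg and 3.87 in bulk, and on 82 of them all 3 amplified arrays lay below the array median. The 33 rises had a median of 4.78 at 10 pg and 0.41 in bulk, and 1 of them was above 2 in bulk. All 173 had no overlap between the 3 amplified arrays and bulk, with a distance of at least 2 log2 from the nearest array. Such a distance was found for 1178 of all 45037 probe sets. The smallest difference called was 2.73 log2, so a fall had to start well above the lowest levels and a rise well below the highest. The start levels and the distance therefore follow in part from the size needed for a call. The number of calls rested in part on single arrays: 127 probe sets passed without replicate 1 of 10 pg, 83 without replicate 2 and 62 without replicate 3, and 49 of the 173 passed in all 3 of these fits. A fit of the 4 arrays alone, in which the spread comes from the 3 amplifications of 10 pg only, called 0, with 5742 at an unadjusted p under 0.05, against 3600 in the fit of all arrays.

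**Figure D1:**
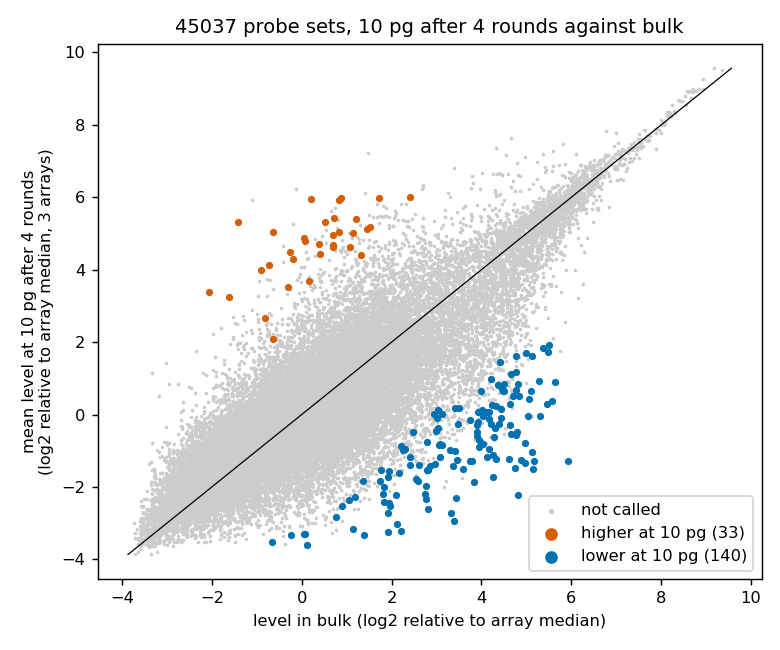
Mean level of each of 45037 probe sets on the 3 arrays of 10 pg after 4 rounds (y axis) against its level on the bulk array (x axis), both in log2 relative to the array median, with the line of equal levels. The 33 probe sets called higher (orange) start near the middle of the bulk range and the 140 called lower (blue) mostly start high in bulk, while the brightest probe sets lie close to the line.

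Of genes, each by its 1 probe set, 15 rose (0.0824% of 18193) and 33 fell (0.181%). Of the 12 largest rises, 4 held without any 1 of the arrays. Rbfox3, the splicing factor detected by the NeuN antibody, reached 5.09, 5.14 and 5.12 at 10 pg, against 1.46 in bulk. The SD of the 3 amplifications was 0.029 (n = 3), and the difference was 3.66 (SE 0.54, adjusted p = 0.006). Cacng2, or stargazin, an auxiliary subunit that brings AMPA receptors to the synapse, stood at 5.49, 6.77 and 5.54, against 0.82 in bulk. All 3 arrays lay far above bulk, by 5.11 on average (SE 0.86, adjusted p = 0.017). Dcaf8, a substrate receptor of the CUL4-DDB1 ubiquitin ligase, measured 5.84, 6.08 and 6.13 at 10 pg and 2.41 in bulk, a difference of 3.61 (SE 0.53, adjusted p = 0.007). The predicted gene Gm21953 had 5.46, 6.44 and 6.04 at 10 pg and 0.87 in bulk, a difference of 5.11 (SE 0.71, adjusted p = 0.004). These 4 stayed past the threshold without any 1 of the 3 amplified arrays, with adjusted p-values of at most 0.022 for Rbfox3, 0.048 for Cacng2, 0.028 for Dcaf8 and 0.016 for Gm21953.

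The other 8 rises each lost their call in a fit without 1 of the arrays. Psd, an exchange factor for ARF6 in dendrites, read 4.57, 5.03 and 3.68 at 10 pg and 0.41 in bulk, with an adjusted p of 0.029 and of 0.063 and 0.075 without replicates 1 and 2. Grasp, a postsynaptic scaffold that binds metabotropic glutamate receptors, read 5.03, 6.44 and 4.69 against 1.22 in bulk (adjusted p = 0.026, and 0.062 without replicate 2). For both, the 3 amplified arrays lay at least 3 log2 above bulk. Pptc7, a mitochondrial phosphatase, had 5.95, 4.18 and 5.83 at 10 pg and 0.53 in bulk (adjusted p = 0.017, and 0.053 without replicate 3). The chromatin remodeller Chd1 showed the largest difference, with 4.88, 4.71 and 5.57 at 10 pg and -0.63 in bulk, or 5.68 log2 (SE 1.17, adjusted p = 0.046). Chd1 was called only with all 3 arrays, with adjusted p-values of 0.078, 0.081 and 0.129 without replicates 1, 2 and 3, and it missed the threshold after quantile normalization (0.052). Tpm3 (a tropomyosin of actin filaments), Scd2 (a desaturase of fatty acids), Bcl9l (a co-activator of Wnt signaling) and Epha5 (a receptor of ephrins) were also called only with all 3 arrays, with a highest adjusted p of 0.132, 0.083, 0.078 and 0.099 in the fits without 1 of them.

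Of the 12 largest falls, 3 held without any 1 of the arrays. Pabpc1 encodes the cytoplasmic poly(A)-binding protein that joins the mRNA tail to translation. It lay at -0.47, -0.41 and -0.60 at 10 pg, just under the array median, against 4.78 in bulk, a difference of -5.28 (SE 0.82, adjusted p = 0.010). Dcaf6, another receptor of the CUL4-DDB1 ligase, read -0.86, -0.65 and -0.92 at 10 pg and 4.04 in bulk, a difference of -4.85 (SE 0.62, adjusted p = 0.003). The small ATP synthase subunit Atp5md measured -1.22, -0.80 and -1.76 at 10 pg and 3.46 in bulk, a difference of -4.72 (SE 0.71, adjusted p = 0.007). On all 3 genes the amplified arrays were close together and the bulk array stood apart. Their highest adjusted p without 1 of the arrays was 0.034, 0.013 and 0.031 in the order given.

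Ubqln2, which carries ubiquitinated proteins to the proteasome, had the lowest difference of the 12, -5.83, but its arrays spread from 0.30 over -1.54 to -2.43 at 10 pg, against 4.603 in bulk. Its adjusted p was 0.020, and 0.057 and 0.060 without replicates 2 and 3. Mal2, a membrane protein of transcytosis, read -1.90, -1.01 and -2.66 at 10 pg and 3.84 in bulk (adjusted p = 0.017, and 0.053 without replicate 3). Spock2, a proteoglycan of the brain's extracellular matrix, read -0.16, 0.44 and 0.61 at 10 pg and 5.46 in bulk, where it belonged to the top 5% of genes (adjusted p = 0.026, and 0.057 to 0.062 without each array). Kcnk15, a potassium channel of the K2P family, had 1.03, 0.41 and -0.15 at 10 pg and 5.07 in bulk (adjusted p = 0.036, and 0.080 and 0.109 without replicates 2 and 3). Of the remaining 5, Rundc3b lost its call without replicates 1 (0.053) and 2 (0.062) and Lonrf2 without replicates 2 (0.062) and 3 (0.052). Tspan12, a partner of the Norrin receptor, and Zfp995 and 5430425E15Rik were called only with all 3 arrays, with a highest adjusted p of 0.135, 0.107 and 0.075.

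**Figure D2:**
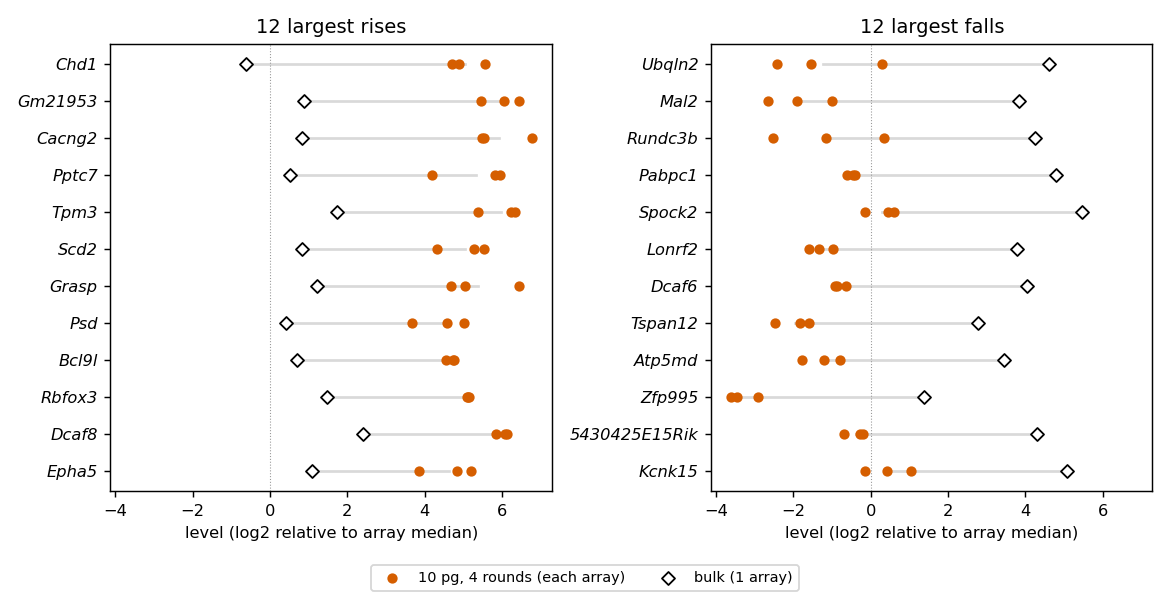
Level in log2 relative to the array median of the 12 genes with the largest rise (left) and the 12 with the largest fall (right) among those called, with each of the 3 arrays of 10 pg after 4 rounds as an orange point and the bulk array as an open diamond. No gene's 3 amplified arrays reach its bulk level. Rbfox3 and Pabpc1 have the tightest amplified arrays of those described (SD 0.029 and 0.10), Ubqln2 and Rundc3b the widest of the falls (1.39 and 1.43).

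For some of these genes, chosen after their values were seen, the levels in the other amplified groups are set beside them here; all share the bulk array. After 4 rounds Rbfox3 averaged 4.30 ± 0.08 with 0.1 pg, 3.06 ± 0.22 with 1 pg and 5.12 ± 0.03 with 10 pg (SD, n = 3 each), against 1.46 in bulk. Pabpc1 averaged 0.20 ± 0.68 with 0.1 pg, -0.71 ± 0.82 with 1 pg and -0.49 ± 0.10 with 10 pg (SD, n = 3 each), against 4.78 in bulk. Chd1 averaged 0.02 ± 0.37 with 0.1 pg, 3.36 ± 2.48 with 1 pg and 5.05 ± 0.46 with 10 pg (SD, n = 3 each), against -0.63 in bulk. The levels of Pabpc1 lay within their spread of each other, and that of Chd1 was widely spread at 1 pg. On the single array of 10 pg after 2 rounds Atp5md stood at 4.79, above its bulk level, and Pabpc1 at -2.31, below its level after 4 rounds.

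Called falls were also looked up among the probe sets of 1 gene. The array reads 9010 genes by several probe sets, and 102 of these had at least 1 called lower, and 3 had more than 1. As 0.311% of all probe sets were called lower, a second call in a gene was rare in any case. At least 1 was called higher for 26, none of which had a second, and 0 genes were called both ways. Among the 102, 68 had another probe set whose mean at 10 pg was at or above bulk, and 34 had every probe set below it on average. The median difference over all probe sets was 0.06, so a probe set at or above bulk is common in any gene. The share over all 9010 genes was not counted, and the 68 are no trait of the genes that fell. These counts were drawn up after the values had been seen.

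The genes of the next sentences were chosen after their values were seen, as the 14 whose called fall held without each array and that had another probe set above 1 in bulk with a difference over -1. Psmd11, a lid subunit of the proteasome's regulatory particle, gave the deepest fall of all: its probe set 1440253_at read -1.73, -0.97 and -1.17 at 10 pg against 5.92 in bulk, a difference of -7.21 (SE 0.74, adjusted p = 0.0006). Another Psmd11 probe set, 1437080_s_at, read 5.68, 5.51 and 5.62 against 5.57 in bulk, a difference of 0.03. Of its 6 other probe sets, 1456059_at read 2.54, 3.502 and 3.05 against 4.15 in bulk, and their differences lay between -1.67 and -0.06, none of them called. Plppr4, a membrane protein of glutamatergic synapses, had -0.43, -0.80 and -2.54 at 10 pg against 4.88 in bulk on 1434685_at (-6.14, adjusted p = 0.004), and 7.16, 6.71 and 6.89 against 5.85 on 1427247_at (1.07, adjusted p = 0.938).

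Oxr1, which protects cells from oxidative damage, had -0.91, -0.77 and -1.32 against 3.41 in bulk on 1418501_a_at (-4.41, adjusted p = 0.013), and 5.58, 5.59 and 4.94 against 4.23 on 1418502_a_at. Celf4, an RNA-binding protein of neuronal mRNA transport, had 0.03, 0.81 and -0.46 against 4.00 in bulk on 1426930_at (-3.88, adjusted p = 0.013), and 3.45, 3.75 and 2.68 against 3.16 on 1452240_at. The second probe set of Oxr1 lay 1.14 above bulk on average and that of Celf4 0.13. The RNA helicase Ddx5 was read by 6 probe sets: 1419653_a_at had -3.09, -2.76 and -3.01 at 10 pg against 3.38 in bulk (-6.34, adjusted p = 0.007), while the differences of the other 5 lay between -1.07 and 0.74. Pnisr, a splicing-associated protein read by 7, had a called fall of -5.09 (adjusted p = 0.010), another difference of -3.93 that missed the threshold (0.051), and 5 between -0.17 and 0.67. The remaining 8 were Atf2 and Cdc42, a transcription factor and a small GTPase, Pak3 (a kinase of dendritic spines), Ahcyl1, Nasp, Ik, Ylpm1 and Ssr1.

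**Figure D3:**
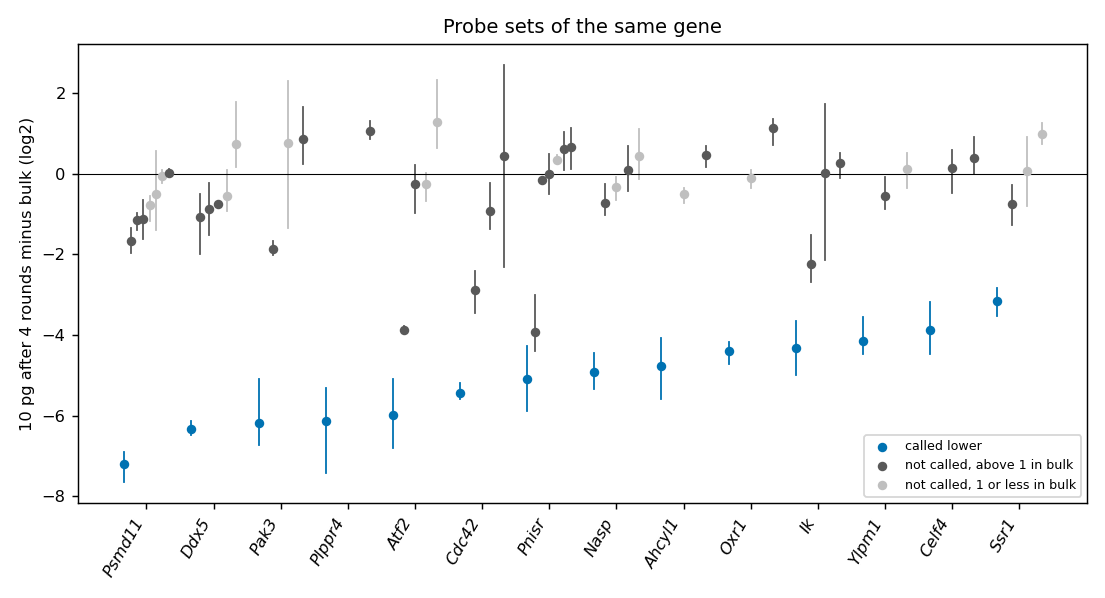
Difference of 10 pg after 4 rounds minus bulk in log2 (y axis) for every probe set of 14 genes (x axis), the point being the mean of 3 arrays and the bar their lowest and highest. Each gene has 1 probe set called lower (blue), from -7.21 for Psmd11 to -3.17 for Ssr1, and at least 1 other probe set above 1 in bulk (dark grey) with a difference over -1.

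In 3 further genes, also chosen after their values were seen, the calls were less stable. Scn2a, the sodium channel of axon initial segments, had 0.34, 1.60 and -0.43 at 10 pg against 4.83 in bulk on 1427281_at (-4.32, adjusted p = 0.034), and 5.87, 5.60 and 5.44 against 5.48 on 1445259_at. Ywhae, a 14-3-3 protein, had -1.90, -2.98 and -2.43 against 1.95 in bulk on 1435702_s_at (-4.38, adjusted p = 0.034), while its 3 other probe sets differed by 0.67, 0.73 and 1.29. Sox11, a transcription factor of young neurons, was among the 3 genes with more than 1 called fall: 2 of its 6 probe sets fell, with differences of -5.08 and -4.33 (adjusted p = 0.027 and 0.037), and the other 4 differed by -0.61 to 0.46. Fits without 1 of the arrays changed these calls, with a highest adjusted p of 0.098 for Scn2a, 0.087 for Ywhae and 0.067 and 0.093 for Sox11.

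Among the 26 genes with a called rise, the other probe sets differed in how far they went along. Those of Calr, a calcium-binding chaperone, were all high at 10 pg: 1417606_a_at was called (4.84, adjusted p = 0.026, and 0.058 to 0.062 without each array), and the differences of the other 2 were 3.69 and 3.95 (adjusted p = 0.088 and 0.126). Among all genes with several probe sets, called or not, the 5 whose probe sets differed most from each other were Chd1, Gabra2, Gna13, Hectd2 and Twf2. Hectd2, a HECT-type ubiquitin ligase, had 4.80, 5.09 and 4.45 at 10 pg against 0.08 in bulk on 1446224_at (4.70, adjusted p = 0.003), and -1.53, -2.02 and -3.24 against 0.61 on 1433944_at (-2.88, adjusted p = 0.289). Gna13, an alpha subunit of heterotrimeric G proteins, had 5.41, 5.72 and 6.62 against -1.11 on 1450656_at. Its difference of 7.03 was the largest above bulk among genes by their 1 probe set, but its adjusted p was 0.095. The 6 other probe sets of Gna13 differed by -2.29 to -0.43. Gabra2, a subunit of GABA-A receptors, had differences from -5.03 to 2.58 over 5 probe sets, none of them called. Twf2, an actin-binding twinfilin, had -1.003, -1.54 and -1.32 against 5.18 in bulk on 1431292_a_at (-6.46, adjusted p = 0.001), and 1.79, 0.64 and 1.72 against -0.18 on its other probe set (1.57, adjusted p = 0.740). For Rbfox3 and Cacng2, named above, the other probe sets were not called: those of Rbfox3 differed by -0.82 and -0.32, and those of Cacng2 by -2.14 and 0.34. Where the probe sets lie on their transcripts was not analysed here. An _s_at or _x_at ending in a probe set's name marks probes that can bind other transcripts as well, which holds for 4.64% and 5.42% of all probe sets and for 10 and 8 of the 140 that fell. The _a_at ending was carried by 9.83% of all probe sets, by 24 of the 140 that fell and by 4 of the 33 that rose.

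Control probe sets placed along 5 transcripts gave a direct reading of transcript ends. For the glycolytic enzyme Gapdh, the 3' probe set read 6.04, 5.81 and 5.97 at 10 pg and 5.83 in bulk. The 5' probe set read 1.16, 1.32 and 1.15 at 10 pg and 3.78 in bulk, and the middle one 1.76, 1.54 and 1.24 at 10 pg and 4.20 in bulk. The 3' end of Gapdh thus stayed at its bulk level, while its middle and 5' end lay lower on all 3 amplified arrays. The 3' minus 5' difference was 4.73 ± 0.207 (SD, n = 3) at 10 pg and 2.05 in bulk. The other transcripts did not show this in their 3' minus 5' difference. For the transferrin receptor the 5' probe set lay under the array median in bulk too (-1.10, against -1.33, -1.54 and -0.77 at 10 pg). A loss at that end could therefore hardly show. Its middle probe set read 0.10, -0.48 and 0.12 at 10 pg against 0.85 in bulk, and its 3' probe set 3.27, 3.40 and 3.88 against 4.27. The 3' minus 5' difference was 1.13 ± 0.551 at 10 pg and 1.09 in bulk for b-actin, the subunit of actin filaments, 4.74 ± 0.183 and 5.37 for the transferrin receptor, the cell's receptor for iron uptake, and 0.50 ± 0.687 and 0.34 for pyruvate carboxylase, a mitochondrial enzyme (SD, n = 3 at 10 pg). For 18S ribosomal RNA it was 1.29 ± 1.47 at 10 pg (SD, n = 3) and 1.49 in bulk. The control probe sets were not in the limma fit, and with 3 arrays against 1 the smallest two-sided p of an exact permutation test is 0.5, so no test was made of these values.

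**Figure D4:**
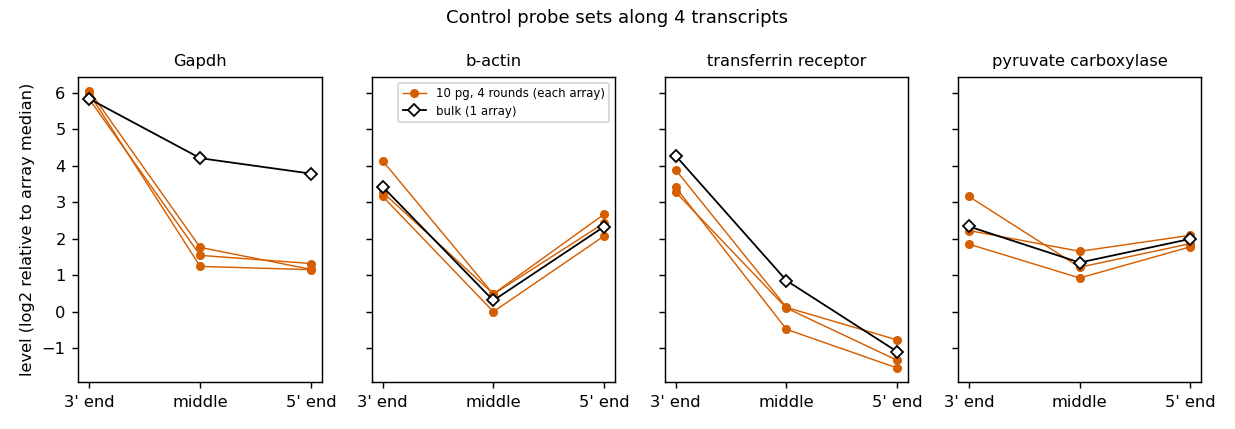
Level in log2 relative to the array median (y axis) of the control probe sets at the 3' end, the middle and the 5' end (x axis) of 4 transcripts, with a line for each of the 3 arrays of 10 pg after 4 rounds (orange) and for bulk (black, open diamonds). For Gapdh the lines meet at the 3' end and part at the middle and the 5' end, and for b-actin and pyruvate carboxylase the bulk line runs among the amplified ones. For the transferrin receptor the bulk line lies above them at the 3' end and the middle and among them at the 5' end.

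The most abundant genes kept their rank on most arrays. The top 5% of genes in bulk comprised 910 genes, of which 696 (76.5%), 727 (79.9%) and 745 (81.9%) were in the top 5% of the 3 amplifications, against 81.5% to 86.0% shared between pairs of amplifications. All 3 amplifications kept 627 of the 910 (68.9%), and 110 (12.1%) were in the top 5% of none. The 10 brightest in bulk, among them Pik3cd, AI854703, Igfbp5 and Akap13, averaged 0.05 to 0.35 log2 above it at 10 pg, but these lie at the upper end of the scale, where signals can be saturated, and are no measure of how well rank was kept. A gene's brightest probe set was chosen over 17 arrays of which 16 were amplified, a choice that can favor probe sets kept by amplification. With each gene taken as the median over its probe sets, the mean share kept was 65.3%, against 79.4% ± 2.72 (SD, n = 3) here.

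Losses from the top to below the middle of the array were therefore counted over probe sets. Of the 2252 probe sets in the top 5% of bulk, 9 lay under the array median on all 3 amplified arrays, and all 9 were called lower, although that of Clasp1 was not called without each of the arrays (adjusted p of 0.053 to 0.077). They belong to Psmd11, Twf2, Plppr4 and Pabpc1, described above, to Micu3 (a regulator of mitochondrial calcium uptake), Eid1 (an inhibitor of histone acetylation), Nufip2 (an RNA-binding partner of FMRP) and Clasp1 (a microtubule plus-end protein), and to 1 probe set without a gene name. Eid1 read -2.77, -0.80 and -3.12 at 10 pg against 4.81 in bulk (-7.03, adjusted p = 0.004). Micu3 read -0.47, -2.15 and -1.91 against 5.14 (-6.65, adjusted p = 0.003), and Nufip2 -0.82, -2.53 and -1.11 against 4.74 (-6.23, adjusted p = 0.002). In the other direction, 5 of the 22486 probe sets under the median in bulk reached the top 5% on all 3 amplified arrays. They read Chd1, Gna13, Zfp91, 4930526I15Rik and an unnamed transcript, and 2 of the 5, that of Chd1 and the unnamed one, passed the test.

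Differences varied with the level in bulk. Genes were ranked by their bulk level and divided into 10 classes of equal size, so that the bulk array enters both the rank and the difference. The median difference was 0.53 in the lowest class and -0.56 in class 9, and the share of genes with all 3 arrays at least 2 log2 below bulk was 6.71% in class 9 and 4.07% in the highest. Over all genes that share was 1.45%, and 0.901% lay at least 2 log2 above bulk on all 3 arrays. Ranked by the mean of the 13 other amplified arrays instead, the median difference was 0.02 in the lowest class, 0.30 in class 9 and -0.04 in the highest. The spread between the 3 amplifications was a median SD of 0.404 over genes, against 0.406 at 0.1 pg and 0.528 at 1 pg after 4 rounds. In the highest class of bulk it was 0.245.

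The gene lists below group the genes of cortex by function. Few list members were called, as few genes were overall. Over all genes, each by its 1 probe set, all 3 amplified arrays lay above bulk for 34.6% and below it for 26.3%. The lists were compared with that share and with the median difference of 0.11, without a test of the list. These medians depend on which probe set stands for a gene, and where a median over all probe sets of a gene turned the sign of a list named here, it is given beside it. A list that kept its sign can still have changed in size.

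Of 20 pan-neuronal genes measured, Rbfox3 was the only one called (1 higher, 0 lower), and all 3 arrays lay above bulk for 9 and below for 5. The median difference was 0.37, and -0.26 with the median of each gene's probe sets. Elavl3, the neuronal RNA-binding protein HuC, read 5.01, 4.87 and 4.65 at 10 pg and 1.28 in bulk, and Snap25, a SNARE protein of synaptic vesicle fusion, 6.60, 6.86 and 6.45 against 4.26. Vsnl1, a calcium sensor, stood lowest of the list, with 0.94, 0.75 and 1.40 at 10 pg and 4.66 in bulk. None of these 3 passed the test. The 16 genes of excitatory neurons had 0 calls and a median difference of 0.03 (-0.14 by the median of probe sets), and all 3 arrays lay above bulk for 5 and below for 5. Its ends were Tbr1, a transcription factor of deep layers, at -0.78, 0.29 and -1.82 against 2.60 in bulk, and Rorb, a nuclear receptor of layer IV, at 3.85, 3.79 and 1.49 against 1.37. The 17 genes of inhibitory neurons had 0 calls and a median of -0.16, with all 3 arrays above bulk for 5 and below for 7. Its ends were Calb1, a calcium-binding protein, at 2.16, 0.73 and -0.07 against 2.38 in bulk, and Slc32a1, the vesicular GABA transporter, at 3.56, 2.11 and 1.16 against -1.25.

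Few synaptic genes were called. The 27 synaptic vesicle proteins had 0 calls and a median difference of 0.19 (-0.15 by the median of probe sets), from -1.53 for Cplx2, a complexin, to 2.57 for Syngr1, a vesicle membrane protein that read 6.45, 6.49 and 6.24 at 10 pg and 3.82 in bulk. The 24 postsynaptic density proteins had 1 rise, Psd, and a median of -0.07, with 5 members above and 10 below bulk on all 3 arrays. Homer1, a scaffold of metabotropic receptors, illustrates the disagreement of amplifications: it read -0.05, 0.44 and 3.61 at 10 pg against 3.80 in bulk. The 21 ionotropic and metabotropic glutamate receptors had 0 calls and a median of 0.11 (-0.17 by the median of probe sets), with the NMDA receptor subunit Grin2b at 2.89, 2.38 and 2.46 against 4.06 in bulk and the kainate receptor subunit Grik1 at 1.98, -0.02 and 3.61 against -0.61. The 15 GABA receptor genes had 0 calls and a median of -0.13 (0.0044 by the median of probe sets, 0.09 without replicate 1 and 0.16 without replicate 3), from -1.12 (Gabrg3) to 2.51 (Gabra5). Of 35 voltage-gated sodium and calcium channel genes, only Cacng2 was called by its 1 probe set, and all 3 arrays lay above bulk for 17 and below for 13. The median was 0.22 (-0.24 by the median of probe sets). Over the list's 85 probe sets 1 fell, that of Scn2a described above. Of 80 potassium channels only Kcnk15 was called.

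Genes of mRNA transport and of the cytoskeleton also had few calls. Of 19 mRNAs localized in dendrites, Psd was called higher and none lower, and the median difference was 0.29, but -0.44 by the median of probe sets. Their median percentile was 92.0, 94.1 and 88.0 at 10 pg and 89.7 in bulk. Eef1a1, a translation elongation factor, stood lowest, at 0.74, -0.48 and 0.18 against 3.91 in bulk, and Actb at 7.46, 7.08 and 7.06 against 6.11. The 29 RNA-binding proteins of mRNA transport had 0 calls by their 1 probe set, although over all 110 probe sets of the list 2 fell, 1 each of Celf4 and Hnrnpk, the second of which was not called without replicate 2 (adjusted p = 0.051). Cpeb2 and Cpeb4, which control polyadenylation in the cytoplasm, differed by -3.004 and -2.32, and Pum2, a repressor of translation, by 1.98. The 12 tubulins had 0 calls and a median difference of 0.71, the highest of the 45 lists, and Tubb2b read 5.04, 6.01 and 5.41 against 1.83 in bulk. That rank rested on single arrays. Without replicate 1 the tubulins had 0.49 and the 14-3-3 proteins 0.55, and without replicate 3 they had 0.52 and 0.88. With all 3 arrays the 14-3-3 proteins had 0.67, but -0.81 by the median of probe sets. The 21 neurofilament and microtubule-associated genes had 0 calls and a median of 0.38 (0.0053 by the median of probe sets), with Stmn4, a stathmin, at 7.79, 6.95 and 7.36 against 4.31.

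Among genes of energy supply and protein synthesis 3 fell. Of 82 subunits of the respiratory chain and ATP synthase, 2 fell, Atp5md and Cox4i2, a subunit of cytochrome c oxidase that read 0.57, 0.83 and 0.59 at 10 pg and 4.77 in bulk (-4.10, adjusted p = 0.035). All 3 arrays lay below bulk for 32 of the 82 and above for 21, and the median difference was -0.21, but 0.18 without probe sets below the array median. Cox7a2l stood high, at 5.79, 5.26 and 5.06 against 2.25. Of 50 cytosolic ribosomal protein genes, Rps3a1 fell, with 0.44, -2.31 and -0.69 at 10 pg and 3.13 in bulk (-3.98, adjusted p = 0.039), and the median difference was 0.00 (-0.14 by the median of probe sets). Neither call held in every fit that left out 1 array, with a highest adjusted p of 0.094 for Cox4i2 and 0.092 for Rps3a1 without replicate 3. A second gene of the ribosome, Rps9, had 1 probe set that rose, with 4.52, 4.43 and 3.92 at 10 pg and -0.19 in bulk (adjusted p = 0.035, and 0.074 to 0.081 without each array), and another that differed by 0.24. The 22 heat shock proteins and chaperonins had the lowest median of all lists, -0.76, with medians of -0.38, -0.53 and -0.88 on the 3 arrays. Astrocyte genes lay lower on replicates 1 and 2, with medians of -0.50 and -0.60, but not on replicate 3 (-0.44). All 3 arrays lay below bulk for 13 of the 22 and above for 2, and none was called by its 1 probe set. Hsp90b1, a chaperone of the endoplasmic reticulum, read -1.10, 0.39 and -1.65 against 2.07 in bulk, and Cct8, a chaperonin subunit, 1.71, 1.48 and -0.05 against 3.77. Over the list's 70 probe sets 1 fell, the 1420623_x_at of Hspa8, which uncoats clathrin vesicles, and it was not called without replicate 2 (adjusted p = 0.055) or 3 (0.062). The 39 proteasome subunits had a median of 0.03 (-0.35 by the median of probe sets) and 0 calls, and Psmb7 stood at -2.25, -2.23 and -3.35 against 0.70.

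Glial lists were mixed. The 17 astrocyte genes had 0 calls and a median difference of -0.56 (-0.22 by the median of probe sets), with 9 below bulk on all 3 arrays and 3 above. Without replicate 1 the median difference of these genes was -0.34, and without replicate 3 it was -0.92. Their median percentile was 64.8, 52.1 and 71.3 at 10 pg and 85.5 in bulk, the largest step of the cell type lists of cortex. Their median level in bulk was 3.06. Over all genes of class 9 by bulk level, with a median of 2.97 in bulk, the median difference was also -0.56. Apoe, the main apolipoprotein of brain, read -0.91, -1.35 and -1.29 at 10 pg and 1.69 in bulk, and the glutamate transporter Slc1a2 1.94, 1.78 and 1.59 against 4.13. S100b, a calcium-binding protein, went the other way, with 3.29, 3.29 and 2.57 against -0.11. The 16 oligodendrocyte and myelin genes had 0 calls and a median of -0.05 (0.20 without probe sets below the array median), with 4 members above and 4 below bulk on all 3 arrays. Its ends were Cnp, an enzyme of myelin, at -0.69, -0.12 and 0.08 against 2.32, and Mal, a proteolipid of myelin, at 2.93, 1.47 and 1.58 against 0.18. The 15 microglia genes had 0 calls and a median of 0.26, with Csf1r, the receptor that microglia need to survive, at 2.85, 4.56 and 4.62 against 0.74.

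Genes that cortex is not known to express measure what an array shows where little mRNA is expected. The 31 vomeronasal receptor genes had a median percentile of 14.5, 15.4 and 17.99 at 10 pg and 13.6 in bulk, and the 33 Hox genes one of 33.3, 48.5 and 58.1 at 10 pg and 41.0 in bulk, with a median difference of 0.20. The 22 testis-restricted genes differed by a median of 0.29 and the 19 genes of liver, muscle and pancreas by 0.20, all with 0 calls. The vomeronasal receptors differed by 0.09. The 38 olfactory receptors differed by -0.05, with 12 above and 13 below bulk on all 3 arrays. The 10 genes of choroid plexus and ependyma differed by 0.33, and Ttr, the thyroid hormone carrier made by choroid plexus, read 0.88, 0.02 and 0.72 against 1.03 in bulk. Genes of any kind that were low in bulk also lay above it: classes 1 to 4 by bulk level had medians of 0.53, 0.38, 0.29 and 0.23.

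**Figure D5:**
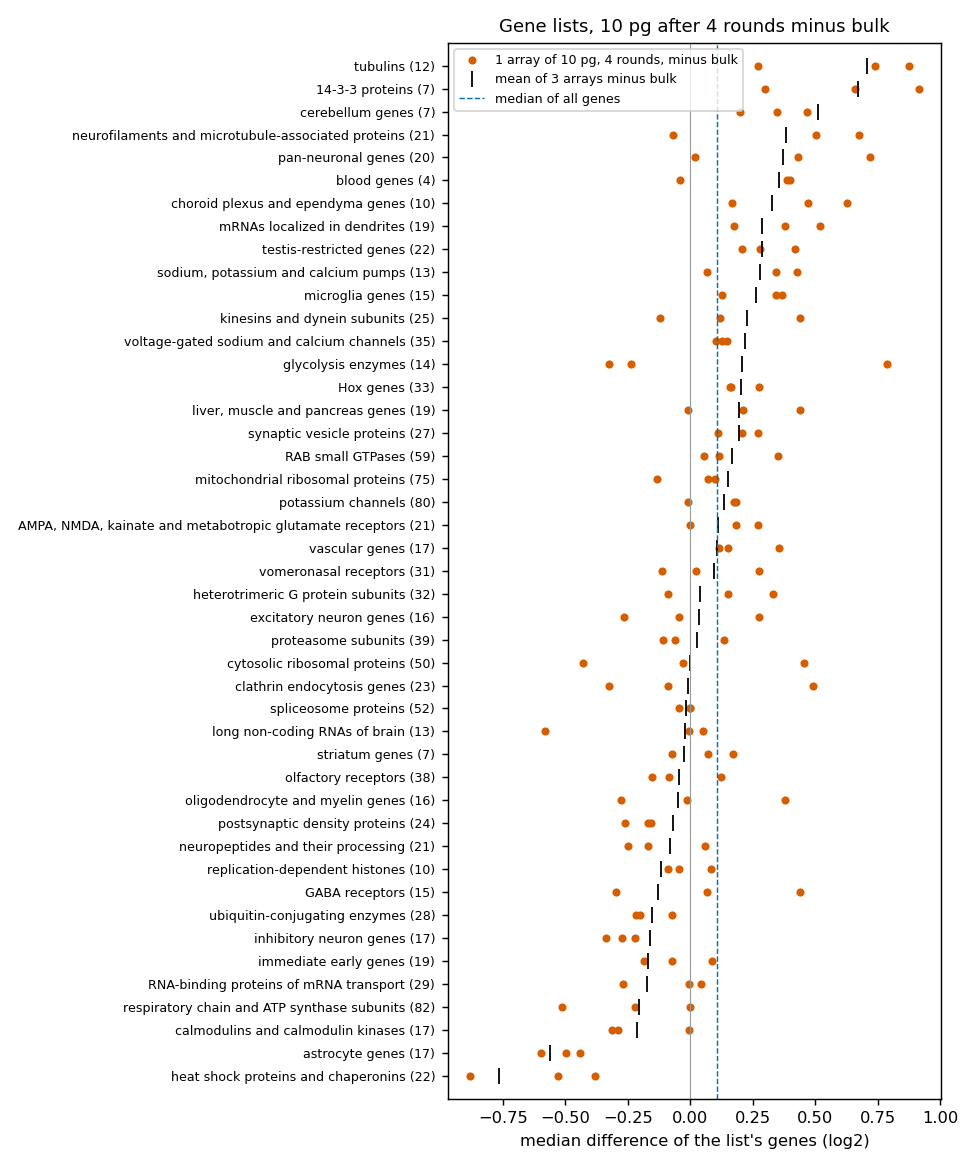
Median difference from bulk in log2 (x axis) of the genes of 45 lists (y axis, number of genes in parentheses), for each array of 10 pg after 4 rounds (orange) and for the mean of the 3 (black tick), with the median of all genes (0.11) as a dashed line. The lists run from -0.76 for heat shock proteins to 0.71 for tubulins. Each of the 3 arrays lies below 0 for heat shock proteins and for astrocyte, inhibitory neuron, postsynaptic density and calmodulin genes. The same holds for ubiquitin-conjugating enzymes and for the respiratory chain and ATP synthase. Calmodulin genes on replicate 2 (-0.0047) and the respiratory chain and ATP synthase on replicate 1 (-0.0003) lie almost at 0.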

How the data were processed

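The authors summarized each probe set with RMA 2.0 and deposited log2 values. The genome build and annotation are not given in the sources used here. The values lack the centering and range scaling of the methods, so both were applied to each array, and levels were multiplied by the mean range of 4.63. Of 45101 probe sets 64 controls were left out, and 34945 carry 1 gene symbol. The 17 arrays were fitted with limma 3.58.1 in R 4.3.3 (7 group means, eBayes, 16.4 degrees of freedom), which assumes that the bulk array varies like the other groups, with Benjamini-Hochberg adjustment over all probe sets. Tables were made with pandas 2.3.3 in python 3.11.15. The fit was also run on simulated data in which the bulk array was given the spread of the other groups. That run could not check how the real bulk array varies. Genes named include the 12 largest rises and falls among calls without overlap, members at the ends of lists and genes at the extremes of bulk. The 5 with the widest probe sets and controls were named too. Other genes, such as Scn2a, Ywhae, Sox11 and those split between probe sets, were chosen after their values were seen. The members and lists were chosen with earlier results of these data known. Alternatives were other scalings, a filter on low values, other sets of arrays, other priors and thresholds, the methods' t-test and leaving out each array.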

Additional observations from a re-analysis of the deposited data

How the results depend on the processing

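The 173 probe sets called became 267 with the values as deposited, 336 with centering on the median alone, 265 in a fit of bulk and the groups after 4 rounds, 369 at a false discovery rate of 10% and 4 at 0.1%. The 4 arrays alone gave 0 calls in limma (5742 at an unadjusted p under 0.05), and the methods' t-test gave 0 after Benjamini-Hochberg adjustment (4454 unadjusted). Leaving out each 10 pg array gave 62 to 127 calls, and quantile normalization, a filter on low values, a trend or robust prior and leaving out the 10 pg array after 2 rounds gave 157 to 189. Of 1178 probe sets with all 3 arrays at least 2 log2 from bulk, 781 were left by the filter, and a distance of 1 or 3 log2 gave 5088 and 305; leaving out an array gave 1691 to 1755. The mean share of the top 5% kept, 79.4%, was 65.3% by the median of probe sets, 75.8% for the top 1% and 78.2% to 80.9% without 1 array. The mean correlation with bulk, 0.819, was 0.766 by Spearman. Values as deposited moved the median difference of all genes to 0.22. Of 360 list medians under these settings, 78 moved by more than 1 SD and 54 turned sign, and none of the called probe sets with 1 gene symbol reversed. No paired analysis was possible because bulk is a single array and could form at most 1 pair. A test by protein length was not run, as no protein table was used here.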

Other observations

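The control probe sets outside the mRNA comparison were given no test. The middle probe set of 18S ribosomal RNA, which carries no poly(A) tail, read 7.30, 6.78 and 6.30 at 10 pg after 4 rounds and 5.55 in bulk. The 5' probe set of the same RNA read 5.84, 4.82 and 2.69 at 10 pg and 4.57 in bulk. The 18 probe sets of the hybridization controls averaged 6.69, 6.23 and 6.06 at 10 pg and 5.42 in bulk, all relative to the array median.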
